A study of Mus musculus with 6 samples.

Results

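The transcripts examined here encode the machinery with which the endoplasmic reticulum (ER) takes in, folds, glycosylates and discards secretory proteins. The set held 37 genes chosen by symbol, all of which had a row among the 49568 genes of the deposited count table. The measurements came from MC/9, a mouse mast cell line. The submitters describe a co-culture in which 7F2 mouse osteoblasts were plated, MC/9 cells joined them a day later, and the mast cells were collected for RNA sequencing after exposure of the culture to rPTH. There were 3 libraries labelled rPTH (10 nM for 24 h) and 3 labelled control with no treatment. The labels do not expand rPTH, which was read as a preparation of parathyroid hormone, and they do not say whether control mast cells had shared a dish with osteoblasts. Each group is the same cell line, and no label says that its 3 libraries came from separate cultures, so the p-values below measure only the spread between these libraries, which may be technical.

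Proteins that are to be secreted, stored in granules or placed in membranes enter the ER through the Sec61 channel. There they receive sugar chains, pair their cysteines into disulphide bonds and are checked by lectins before export. Proteins that fail are drawn back to the cytosol and destroyed, which is called ER-associated degradation. When unfolded proteins build up, the sensors encoded by Ern1 and Atf6 and the transcription factor encoded by Xbp1 raise transcription of much of this machinery, a program named the unfolded protein response. Mast cells rely on this route because their granule proteases and surface receptors are made in the ER.

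No member passed the test between rPTH and control. Of the 37 members, 36 had enough counts to test and 0 passed an adjusted p of 0.05 in edgeR's quasi-likelihood test with Benjamini-Hochberg adjustment over all 16696 tested genes, of which 0% were called. Their adjusted p ran from 0.628 to 0.938 and log2 fold changes, rPTH minus control, from -0.63 (Sec61b) to 0.52 (Ern1). Both ends of that range rested on control 1. Without it all 36 members lay between -0.20 and 0.17. At an unadjusted p under 0.05 edgeR called 0 of the 36 members, against 7.87% of all tested genes, and DESeq2 and limma-voom also called 0 members at that level.

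A short promoter element ties part of the set together, and the stretches that hold it are shown because the unfolded protein response is known to act through it. The ER stress response element (ERSE) was searched as CCAAT and CCACG separated by any 9 bases, and its relative ERSE-II as ATTGG and CCACG separated by any 1 base, on both strands, in RefSeq promoter windows of GRCm38.p6 that reach from 250 bases before to 50 bases after each gene's start. Windows were matched for 31 members (not for Atf6, Hyou1, Manf, Sec61a1, Ssr2 and Derl1), with Ero1l and Ero1lb matched through their newer symbols Ero1a and Ero1b. ERSE occurred in 7 of them (22.6%), against 0.119% of all 32851 windows, and ERSE-II occurred in 1 (3.23%), against 0.0365%. The members' shares are per gene, Derl2 and Rpn2 having more than 1 window, and the other shares are per window. The genes were chosen for their ER functions, so the excess is not a result about rPTH. A separate sequence, the core TGACGTGG of the unfolded protein response element (UPRE), occurred in 0 of the 31, against 0.676% of all windows. With so low a share over all windows, that 0 says little. Each stretch is written 5′ to 3′ on the gene's own strand, with the element in capitals.
Calr: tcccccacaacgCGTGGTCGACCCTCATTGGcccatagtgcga
Canx: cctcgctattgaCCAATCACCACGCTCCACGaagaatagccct
Creld2: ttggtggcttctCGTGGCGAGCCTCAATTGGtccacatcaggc
Derl3: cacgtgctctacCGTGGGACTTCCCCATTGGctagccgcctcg
Ero1lb: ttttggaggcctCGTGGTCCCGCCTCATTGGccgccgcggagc
Pdia6: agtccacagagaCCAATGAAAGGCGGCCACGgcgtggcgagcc
Syvn1: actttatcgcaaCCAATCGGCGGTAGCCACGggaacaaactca
Herpud1: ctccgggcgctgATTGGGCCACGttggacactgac
The stretches lie at chr8:84847063-84847105 on the minus strand (Calr), chr11:50325788-50325830 on the minus strand (Canx), chr15:88819508-88819550 on the plus strand (Creld2) and chr10:75893230-75893272 on the plus strand (Derl3). Those of Ero1lb, Pdia6, Syvn1 and Herpud1 lie on the plus strand at chr13:12565670-12565712, chr12:17266479-17266521, chr19:6046520-6046562 and chr8:94386365-94386399. In Calr, Creld2, Derl3 and Ero1lb the element runs against the gene, so that it reads CGTGG first and ATTGG last. A match to these letters is a description of the sequence and not a measured binding site. The 7 tested genes with either element had log2 fold changes of -0.43 to 0.21 (median -0.19, 2 above 0). The 23 tested members whose window held neither ranged from -0.63 to 0.52 (median -0.14, 8 above 0). The ranges overlapped, and without control 1 the medians were 0.06 and -0.01.

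Total counts ran from 22282095 to 33577977 per library, the rPTH libraries being the deeper ones. In a principal component analysis the first axis (53.1% of the variance) set control 1 against the rest and the second axis (31.1%) set control 3 apart. The 15 mast cell markers summed to 6600, 8530 and 8100 CPM in rPTH 1, 2 and 3 and to 10000, 8200 and 8200 CPM in control 1, 2 and 3. Of the 13 that were tested, 4 had a fold change above 0, and the median was -0.23 on the log2 scale. The markers did not move together. The IgE receptor chain Fcer1a and the proteases Tpsb2 and Cpa3 were highest in control 1 and lowest in rPTH 1. Kit, Il1rl1 and Mitf were instead lowest in control 1, at 278, 535 and 52.1 CPM. In rPTH 1 these genes had 456, 813 and 75.4 CPM. The protease gene Mcpt4 and the receptor gene Mrgprb1 stayed under 1 CPM. CPM here means counts scaled to library size and by TMM factors, which correct for differing library composition. The 35 osteoblast and stromal markers summed to 5530, 3580 and 3660 CPM in rPTH 1, 2 and 3 and to 3110, 2790 and 2760 CPM in control 1, 2 and 3. Among the 30 that were tested, 28 leaned towards rPTH (median log2 fold change 0.54). Of the 35, 7 stayed under 1 CPM in all 6 libraries, among them the osteoblast genes Sp7, Bglap and Ibsp. Other osteoblast genes of the list were present. Spp1 ranged from 412 to 845 CPM, Runx2 from 17.5 to 35.5 CPM and Alpl from 14.5 to 33.0 CPM over the 6 libraries. Osteoblasts also use the ER machinery, and the part of either marker list in the values below was not tested.

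The 37 members together made up 0.887%, 0.964% and 0.906% of counts in rPTH 1, 2 and 3 and 0.907%, 0.903% and 0.865% in control 1, 2 and 3. Scaled by TMM they summed to 8780 ± 371 CPM with rPTH and 9420 ± 1550 CPM in controls (SD, n = 3 each). The wide control spread came from control 1 at 11200 CPM, against 8730 and 8320 CPM in controls 2 and 3. By plain library totals control 1 had 9070 CPM, inside the 8650 to 9640 CPM of the other 5, so its high sum depended on the scaling. Under plain totals the median log2 fold change of all tested genes was 0.04 instead of -0.09, and that of the members -0.01 instead of -0.14. P4hb, Pdia3, Rpn2, Edem1 and Derl1, all below 0 under TMM, were above 0 under plain totals. Calr, P4hb and Pdia3 held 34.9% of all member counts.

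Levels can be set beside each other across genes only per length, and CPM per kilobase of principal transcript was used for this. The order was led by the calcium-binding lectin chaperone Calr at 550 CPM per kilobase, then the protein disulphide isomerases P4hb at 364 and Pdia3 at 345 CPM per kilobase. These are means over the 6 libraries, and Calr, P4hb, Pdia3 and the glycosylation subunit Rpn2 (182) kept this order in the rPTH mean and in the mean of controls 2 and 3. The ranks below them depended on control 1. Over the 6 libraries Ssr2 (174) and Ssr4 (169), subunits of the translocon-associated complex, came before Canx (148), a membrane lectin. Canx stood above them at 159 CPM per kilobase in the rPTH mean, against 147 for Ssr2 and 146 for Ssr4, and at 150 in the mean of controls 2 and 3, against 146 and 143. At the low end stood Atf6 (9.14), Ern1 (6.59), the mannosidase-like gene Edem3 (4.61) and the oxidase Ero1lb (2.78 CPM per kilobase). The transcription factor gene Xbp1 stood higher, at 44.6 CPM per kilobase. Over the 6 libraries 14 members exceeded 100 CPM per kilobase, and 13 did so in the rPTH mean and in the mean of controls 2 and 3, where Sec61g had 83.8 and 84.0 CPM per kilobase. Ssr1 had 25.4 CPM per kilobase although it encodes a subunit of the same complex as Ssr2 and Ssr4, and its principal transcript of 9333 bases was the longest of the set. Derl3 was close to absent, with 3, 0 and 12 counts in rPTH 1, 2 and 3 and 4, 1 and 9 counts in control 1, 2 and 3, and was not tested. The 0 in rPTH 2 allows up to 3 counts, and such a floor covers counting error only.

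**Figure D1:**
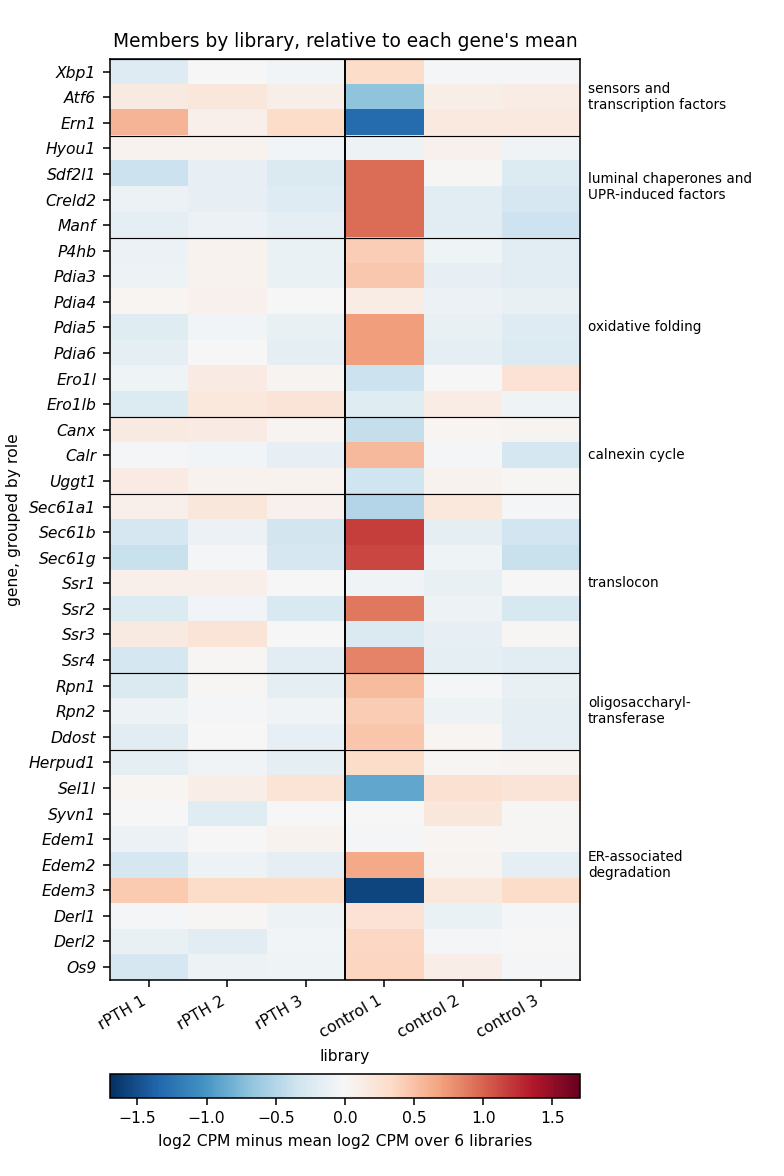
Heat map of the 36 tested members, grouped by role, in the 6 libraries (columns, rPTH left of control). Colour gives log2 CPM minus the gene's mean over the 6 libraries; control 1 carries the deepest colours, with Sec61b and Sec61g high and Edem3 and Ern1 low, while the other 5 columns stay pale.

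Among the sensors, Xbp1, the transcription factor whose RNA is spliced by the Ern1 product, had 80.8, 94.0 and 91.4 CPM in rPTH 1, 2 and 3 and 117, 93.3 and 93.0 CPM in control 1, 2 and 3. The groups overlapped, with a log2 fold change of -0.19 ± 0.17 (SE; edgeR adjusted p = 0.669). Ern1, the kinase and nuclease that senses unfolded proteins, had 63.6, 45.2 and 53.0 CPM with rPTH against 17.2, 47.6 and 47.9 CPM in controls. Its log2 fold change of 0.52 ± 0.39 (SE; edgeR adjusted p = 0.641) was the highest of the set and fell to 0.16 ± 0.14 without control 1, the library with the low value. Atf6, a membrane-bound factor released by cleavage, had 72.0 ± 2.26 CPM with rPTH and 60.5 ± 17.3 CPM in controls (SD, n = 3 each), and its fold change was 0.25 with all libraries and 0.02 without control 1. Gene-level counts do not separate spliced from unspliced Xbp1 RNA.

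The luminal chaperones and factors induced by ER stress differed from gene to gene. Hyou1, a large chaperone of the Hsp70 kind, was even, with 219, 218 and 204 CPM in rPTH 1, 2 and 3 and 197, 222 and 202 CPM in control 1, 2 and 3. Sdf2l1, a small partner of the ER Hsp70 cycle, had 35.8, 41.7 and 38.8 CPM with rPTH and 88.7, 46.8 and 39.3 CPM in controls. Control 1 had about as much as the other controls together, and the rPTH values overlapped those of control 3. Its log2 fold change of -0.59 ± 0.31 (SE; edgeR adjusted p = 0.628) carried the smallest unadjusted p of any member, 0.103, and became -0.16 ± 0.11 without control 1. Without control 3 its unadjusted p was 0.0332, the only member under 0.05 in that fit, against 9.5% of the genes tested there. Creld2, a folding factor, and Manf, a secreted and ER-resident protein that protects stressed cells, behaved alike: Manf had 105, 110 and 106 CPM with rPTH and 227, 104 and 92.6 CPM in controls. The log2 fold changes of Creld2 and Manf were -0.43 and -0.41 with all libraries, and 0.07 and 0.10 without control 1.

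Oxidative folding was covered by 5 disulphide isomerases and a pair of oxidases, the Ero1 enzymes that recharge them. The most abundant, P4hb, had 965, 1070 and 950 CPM in rPTH 1, 2 and 3 against 1380, 974 and 902 CPM in control 1, 2 and 3. Apart from control 1 its values lay between 902 and 1070 CPM in both groups (log2 fold change -0.13 ± 0.24, SE; edgeR adjusted p = 0.821). Pdia5, the member of smallest p in this group, had 28.1, 31.4 and 29.6 CPM with rPTH and 53.0, 29.6 and 27.7 CPM in controls (log2 fold change -0.31 ± 0.27, SE; edgeR adjusted p = 0.669). Pdia6 (251 ± 16.4 CPM with rPTH and 304 ± 119 CPM in controls) and Pdia3 (915 ± 59.9 and 998 ± 261 CPM) followed the same order (SD, n = 3 each). That order rested on control 1. Without it the log2 fold changes of P4hb, Pdia5, Pdia6 and Pdia3 were 0.07, 0.04, 0.08 and 0.10. Pdia4 had 173 ± 3.77 CPM with rPTH and 165 ± 16.1 CPM in controls, and without control 1 its fold change was 0.15 ± 0.07 (SE; edgeR adjusted p = 0.414). The oxidase Ero1l had 517, 598 and 562 CPM with rPTH and 423, 545 and 642 CPM in controls. Its relative Ero1lb was scarce, at 12.3 ± 2.01 and 11.3 ± 1.31 CPM, and both groups overlapped for each oxidase.

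**Figure D2:**
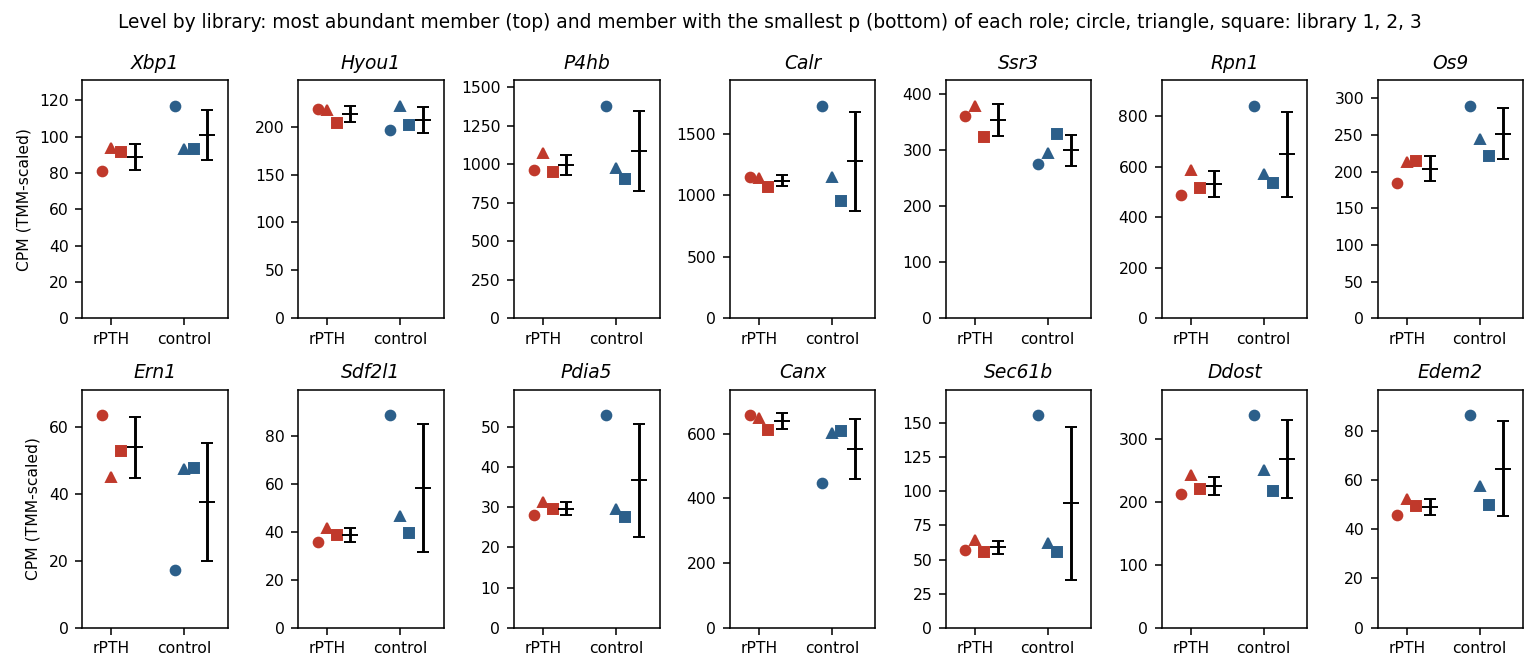
CPM by library of the member with the highest mean CPM (top row) and of the member with the smallest p (bottom row) in each role, rPTH left of control; circles, triangles and squares are libraries 1, 2 and 3, and the bar beside them is the mean with its SD (n = 3). In most panels the circle of control 1 lies far from the other 5 points, as for Sec61b at 156 CPM.

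In the calnexin cycle, in which lectins hold glycoproteins until they are folded, the membrane lectin Canx and its soluble relative Calr went opposite ways in control 1. Canx had 657, 649 and 611 CPM in rPTH 1, 2 and 3 and 446, 603 and 609 CPM in control 1, 2 and 3, so that all rPTH libraries lay above all controls, rPTH 3 and control 3 almost touching. Its log2 fold change was 0.21 ± 0.20 (SE; edgeR adjusted p = 0.692). Calr had 1150, 1140 and 1070 CPM with rPTH and 1730, 1150 and 957 CPM in controls (log2 fold change -0.19 ± 0.27, SE; edgeR adjusted p = 0.772). Uggt1, the sensor that marks misfolded glycoproteins for another round, had 195 ± 5.91 CPM with rPTH and 174 ± 25.9 CPM in controls (SD, n = 3 each). Without control 1 the log2 fold changes of the 3 genes lay between 0.03 and 0.08.

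In the translocon, subunits of 1 complex lay on both sides of 0. Sec61a1 encodes the channel itself, Sec61b and Sec61g its small partner subunits, and Ssr1 to Ssr4 the translocon-associated protein complex. Sec61b had 56.9, 64.6 and 55.6 CPM in rPTH 1, 2 and 3 and 156, 62.4 and 55.3 CPM in control 1, 2 and 3, with a log2 fold change of -0.63 ± 0.40 (SE; edgeR adjusted p = 0.629). Sec61g had 55.3, 70.6 and 58.9 CPM with rPTH and 158, 68.3 and 55.2 CPM in controls. The channel gene Sec61a1 had 256, 275 and 253 CPM with rPTH and 171, 272 and 237 CPM in controls, the reverse order in control 1. Ssr3, the most abundant of the 7 in CPM, had 361, 379 and 323 CPM with rPTH and 275, 295 and 329 CPM in controls, a log2 fold change of 0.24 ± 0.17 (SE; edgeR adjusted p = 0.636). Ssr2 and Ssr4 stood at -0.45 and -0.39 and Ssr1 at 0.12. Without control 1 the fold changes of Sec61b, Sec61g and Ssr2 were each -0.01, that of Ssr4 was 0.02 and that of Sec61a1 was 0.03. Those of Ssr1 and Ssr3 were 0.11 ± 0.08 and 0.17 ± 0.10 (SE; edgeR adjusted p = 0.578 and 0.484), Ssr3 being the highest of the 36 members in that fit.

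The 3 subunits of the oligosaccharyltransferase, which attaches sugar chains to incoming proteins, were all highest in control 1. Rpn1 had 490, 589 and 516 CPM in rPTH 1, 2 and 3 and 842, 572 and 534 CPM in control 1, 2 and 3 (log2 fold change -0.29 ± 0.24, SE; edgeR adjusted p = 0.658). Ddost had 213, 242 and 221 CPM with rPTH and 338, 250 and 218 CPM in controls (log2 fold change -0.26 ± 0.21, SE; edgeR adjusted p = 0.656). For both genes the rPTH values overlapped those of controls 2 and 3. Rpn2 had 477 ± 9.2 CPM with rPTH and 527 ± 123 CPM in controls (SD, n = 3 each).

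Genes of ER-associated degradation differed among themselves. Edem2, which helps trim mannose from glycoproteins bound for disposal, had 45.7, 52.3 and 49.2 CPM in rPTH 1, 2 and 3 and 86.3, 57.4 and 49.9 CPM in control 1, 2 and 3 (log2 fold change -0.39 ± 0.23, SE; edgeR adjusted p = 0.628). Its relative Edem3 had 36.3, 33.2 and 33.3 CPM with rPTH and 9.06, 30.2 and 33.0 CPM in controls (log2 fold change 0.51 ± 0.44, SE; edgeR adjusted p = 0.668). These relatives had opposite signs, also without control 1, where the log2 fold changes were smaller at -0.14 for Edem2 and 0.10 for Edem3. Edem1 was even at 137 ± 7.73 and 140 ± 2.54 CPM (SD, n = 3 each). Sel1l, the scaffold of the ubiquitin ligase Syvn1, had 106 ± 7.19 CPM with rPTH and 93.9 ± 35.7 CPM in controls, with 52.7 CPM in control 1. Derl1, a channel-forming partner, had 102 ± 3.61 CPM with rPTH and 107 ± 14.6 CPM in controls.

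With TMM scaling, a further 4 degradation genes had all rPTH libraries below all controls, both with and without control 1. Os9, a lectin that delivers glycoproteins to the ligase, had 185, 213 and 215 CPM in rPTH 1, 2 and 3 and 290, 244 and 222 CPM in control 1, 2 and 3 (log2 fold change -0.30 ± 0.18, SE; edgeR adjusted p = 0.628). Herpud1, a stress-induced partner of the ligase, had 41.6, 44.8 and 42.1 CPM with rPTH and 57.8, 47.4 and 48.2 CPM in controls (log2 fold change -0.25 ± 0.15, SE; edgeR adjusted p = 0.628). Syvn1 had 56.1, 49.1 and 56.1 CPM with rPTH and 56.8, 64.5 and 57.0 CPM in controls, and Derl2 had 34.9, 33.4 and 36.7 CPM against 48.6, 37.5 and 38.2 CPM. The gaps of these 4 genes were narrow. Without control 1 their log2 fold changes were -0.20, -0.17, -0.19 and -0.12, with edgeR adjusted p from 0.407 to 0.560. Of these 4 genes only Os9 stayed separate in both cases by plain library totals. Herpud1 overlapped through control 1, at 46.8 CPM against 46.9 CPM in rPTH 2. Syvn1 overlapped also without control 1, at 59.7 CPM in rPTH 3 and 59.2 CPM in control 3. Derl2 did so too, at 39.1 CPM in rPTH 3 and 38.8 CPM in control 2. Over the whole set and with TMM scaling, groups did not overlap for 4 lower members (11.1%), against 8.45% of all tested genes. They did not overlap for 3 higher members, Canx, Ssr1 and Edem3 (8.33%), against 8.35%. Without control 1 the shares were 11.1% lower and 16.7% higher, against 14.6% and 16.6% of all tested genes. With both directions together, 7 members did not overlap, against 16.8% of all tested genes. These shares lie near the background. Syvn1 overlaps Mrpl49, and Derl2 overlaps Mis12, each on the other strand, and no source used here gives the strand setting of the counts. These overlaps are of whole gene spans, and whether exons are shared was not examined. Where exons are shared, reads of the neighbours cannot be told apart from theirs.

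**Figure D3:**
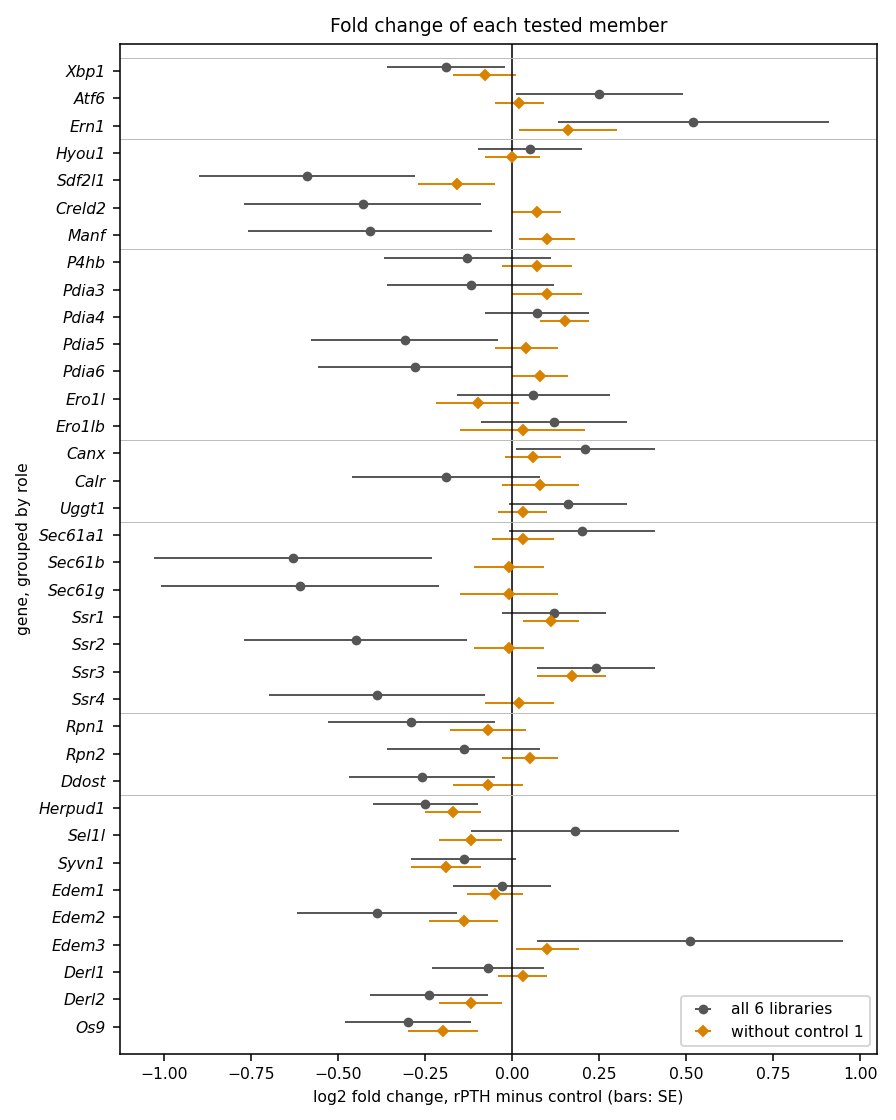
Log2 fold change, rPTH minus control, of each of the 36 tested members with its SE (horizontal bars), from all 6 libraries (grey circles) and without control 1 (orange diamonds). The circles spread from -0.63 to 0.52 and the diamonds from -0.20 to 0.17.

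Control 1 lay at an end of the range for most members. With TMM scaling it was highest of the 6 libraries for 22 members, lowest for 10 and inside the range of the others for 4. That puts it at an end for 88.9% of the members, against 72.5% of all tested genes. By plain library totals control 1 was no longer highest for Xbp1, Herpud1, Derl1, Derl2 and Os9. Pdia4, highest in control 1 with TMM scaling, was lowest there by plain totals, at 149 CPM. Ssr1, Syvn1, Edem1 and Ero1lb moved from inside the range to lowest in control 1. With TMM scaling, over the other 5 libraries, the highest value of a member was a median of 1.17 times its lowest. It was at most 1.41 times (Ern1). With control 1 included that median was 1.58 and the largest ratio 4.01. Of the 36 members, 13 had a log2 fold change above 0 (36.1%, against 41.5% of all tested genes), with a median of -0.14 beside -0.09 for all tested genes. Without control 1, 21 were above 0 and the median was 0.02, beside -0.04 for the 17454 genes tested in that fit. The SE of single members ran from 0.14 to 0.44 with all libraries and from 0.07 to 0.18 without control 1.

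The direction of control 1 followed transcript length, a property that the choice of genes did not use. In control 1 the 6 members with a principal transcript under 1500 bases (Sdf2l1, Creld2, Sec61b, Sec61g, Ssr2 and Ssr4) had 2.03 to 2.64 times the mean CPM of controls 2 and 3. The 11 members over 4000 bases (among them Atf6, Ern1, Sel1l, Edem3, Canx and Uggt1) had 0.286 to 0.995 times that mean. Across the 36 genes, Spearman's rho between length and control 1 relative to the other controls was -0.84; these points share 3 libraries and are not independent replicates. Over the 16227 tested genes with a length it was -0.45. The fold change of rPTH over control followed length with a rho of 0.84 in the members and 0.65 in all those genes, and of 0.17 in the members without control 1. The length limits and these relations were chosen after the values were seen and carry no test, and whether length itself set the values was not tested.

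**Figure D4:**
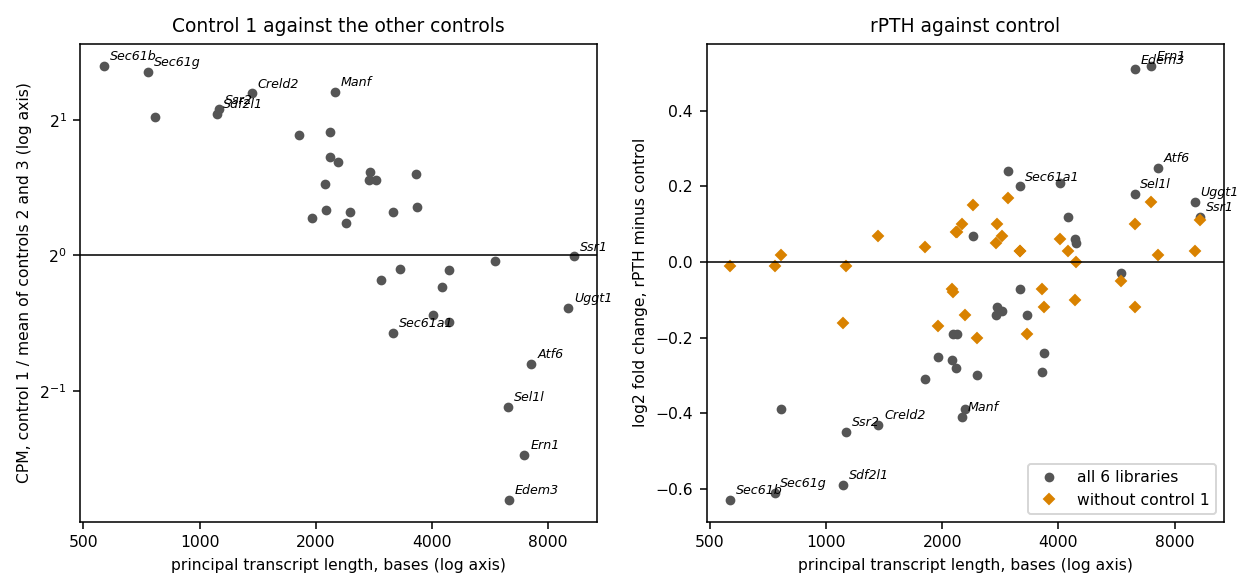
Left, CPM in control 1 divided by the mean of controls 2 and 3 (log axis), and right, log2 fold change of rPTH minus control with all libraries (grey circles) and without control 1 (orange diamonds), each against principal transcript length on a log axis, 1 point per tested member. Short transcripts such as Sec61b lie high on the left and low on the right, and the orange points show little slope (rho 0.17).

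Ratios of counts within a library do not depend on scaling and show how the subunits of a complex stood to each other. Sec61b over Sec61a1 was 0.222, 0.235 and 0.22 in rPTH 1, 2 and 3 and 0.909, 0.229 and 0.234 in control 1, 2 and 3. Both small subunits kept step: Sec61g over Sec61b was 0.972 to 1.09 in the rPTH libraries and 0.998 to 1.09 in controls, control 1 included. In the translocon-associated complex Ssr2 over Ssr1 was 0.63, 0.718 and 0.652 with rPTH and 1.54, 0.809 and 0.649 in controls, whereas Ssr4 over Ssr2, both short, was 0.638 to 0.698 with rPTH and 0.629 to 0.702 in controls. In these pairs the ratio of a partner under 1500 bases to a longer one was high in control 1. The ratio of the short partners to each other was not. Ssr3 over Ssr1, with 2957 and 9333 bases, was instead lowest in control 1. It was 1.43, 1.51 and 1.36 with rPTH and 1.22, 1.36 and 1.39 in controls. Creld2 over Hyou1 was high in control 1, at 0.264, 0.258 and 0.261 with rPTH and 0.612, 0.244 and 0.253 in controls. Calr over Canx was 1.75, 1.76 and 1.75 with rPTH and 3.88, 1.91 and 1.57 in controls, and Edem1 over Edem3, both long, was 3.56, 4.17 and 4.34 with rPTH and 15.1, 4.7 and 4.26 in controls. P4hb over Pdia3 was steady, at 1.09 ± 0.00201 with rPTH and 1.09 ± 0.0337 in controls (SD, n = 3 each). With control 1 set aside, the rPTH and control ratios overlapped for 18 of the 22 pairs computed. The rPTH ratios all lay above those of controls 2 and 3 for Creld2 over Hyou1, Manf over Hyou1 and Derl1 over Derl2, and below them for Sdf2l1 over Hyou1. Derl1 over Derl2, at 2.93, 3.13 and 2.66 with rPTH and 2.54, 2.56 and 2.64 in controls, did not overlap with control 1 included either. The same was true of Sdf2l1 over Hyou1, at 0.164, 0.192 and 0.19 with rPTH and 0.451, 0.211 and 0.195 in controls. The pairs were chosen after the values were seen, and no share over other pairs of genes was computed. For the CPM of single genes without control 1, groups did not overlap for 16.6% (higher) and 14.6% (lower) of all tested genes. No test was run on these ratios.

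**Figure D5:**
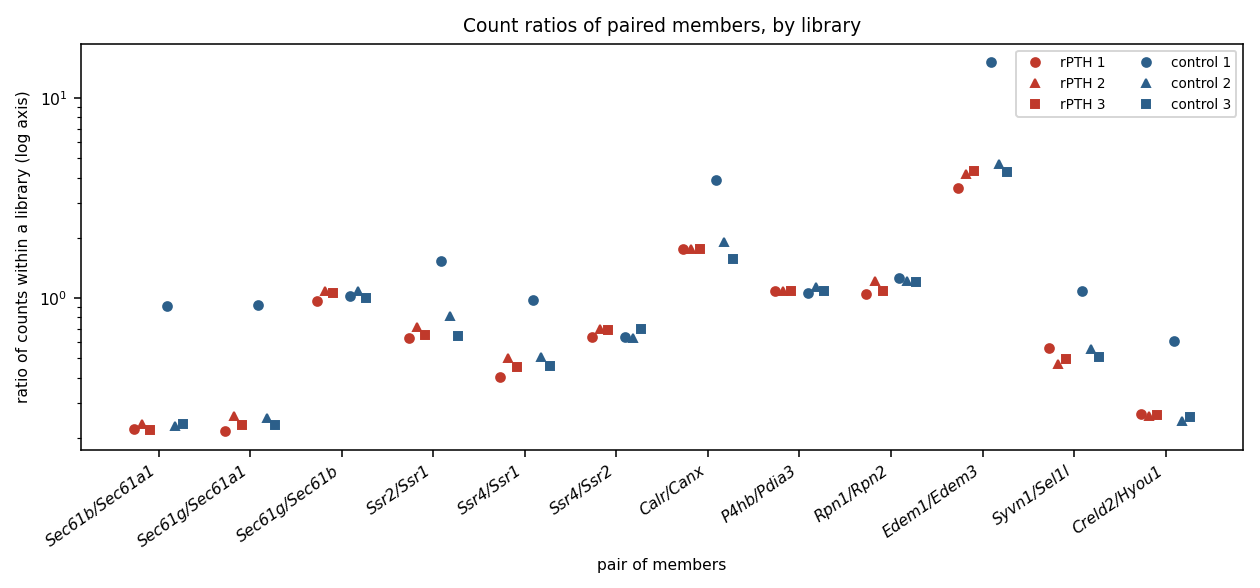
Ratio of the counts of paired members within each library, on a log axis, with rPTH libraries (red) left of controls (blue). The control 1 circle stands above the other 5 points for Sec61b/Sec61a1 (0.909 against 0.22 to 0.235) and lies among them for Sec61g/Sec61b; the pairs were chosen after the values were seen.

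Some counts are uncertain because near-identical copies exist. The processed pseudogene Gm10177 matched Sec61g at 100% identity over 420 bases and had 12247 counts in all libraries together, beside 12459 for Sec61g, and Gm11575 had 3124. Gm18562 matched Ero1lb at 98% over 921 bases and had 412 counts, beside 2043 for Ero1lb. Reads of these copies and of the parent genes cannot be told apart where the sequence is shared. Gm10177 had 1721, 2406 and 2066 counts in rPTH 1, 2 and 3 and 3083, 1708 and 1263 counts in control 1, 2 and 3. Sec61g had 1744, 2438 and 2102 counts with rPTH and 3130, 1766 and 1279 counts in controls. The high control 1 of Gm10177 is therefore not a separate observation. The gene span of Manf overlaps that of Rbm15b on its own strand, which had 11970 counts beside 20205 for Manf. Whether their exons are shared was not examined.

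A wider list of 72 ER genes outside the set, which adds the signal recognition particle, signal peptidase, further chaperones and the Eif2ak3 stress branch, gave the setting. Of these 70 had a row and 69 were tested; 0 passed the adjusted threshold, 29 had a log2 fold change above 0 and 40 below, and the median was -0.04 (0.03 without control 1). At an unadjusted p under 0.05, 0 were higher and 1 was lower, against 1.98% and 5.89% of all tested genes. That gene was Ddit3, a transcription factor of the Eif2ak3 branch, which had 27.6, 27.5 and 30.7 CPM in rPTH 1, 2 and 3 and 61.5, 35.9 and 37.8 CPM in control 1, 2 and 3. All rPTH libraries lay below all controls, with a log2 fold change of -0.65 ± 0.24 (SE; edgeR adjusted p = 0.619), and of -0.37 without control 1. Of the 69 tested genes of the list, groups did not overlap for 5 lower ones, among them Ddit3 and Ppp1r15a. They did not overlap for 9 higher ones, among them Dnajc10 and Magt1. The shares over all tested genes were 8.45% lower and 8.35% higher. Eif2ak3 itself had a log2 fold change of -0.02 (edgeR adjusted p = 0.962). Ppp1r15a, which restores translation after stress and acts in the same branch, had 62.9, 64.6 and 71.0 CPM with rPTH and 88.6, 77.8 and 83.3 CPM in controls (log2 fold change -0.33, edgeR adjusted p = 0.619). Fkbp2, an ER prolyl isomerase, had 38.1, 40.1 and 39.6 CPM with rPTH and 118, 46.1 and 39.4 CPM in controls, again with the gap in control 1. On the higher side Dnajc10, a reductase that prepares proteins for degradation, had 88.0, 72.4 and 67.1 CPM with rPTH and 61.1, 56.2 and 61.5 CPM in controls (log2 fold change 0.35, edgeR adjusted p = 0.619). Magt1, an oligosaccharyltransferase subunit, had 101, 95.1 and 92.0 CPM with rPTH and 72.8, 79.0 and 85.8 CPM in controls (log2 fold change 0.28, edgeR adjusted p = 0.628). Tmx3, a membrane-bound disulphide isomerase, had 78.1, 87.0 and 73.6 CPM with rPTH and 41.0, 58.0 and 81.9 CPM in controls, and its groups overlapped.

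In the authors' deposited table the adjusted p of the same 36 members ran from 0.585 to 0.975, with none given for Derl3. The log2 fold changes in the authors' deposited table, from -0.42 to 0.46, had the sign found here for 34 of the 36. They come from DESeq2 and not edgeR, so the sizes of the fold changes are not set side by side.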

How the data were processed

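RNA of 3 rPTH and 3 control libraries was sequenced from TruSeq preparations, per the labels' protocols. The authors deposited whole-number counts per gene, and the submitters' processing notes name Trimmomatic 0.36, STAR 2.5.2b, Subread 1.5.0p3 with featureCounts, DESeq2 1.12.4 and R 3.3.0, beside the builds GRCm38.p5 and mm9. No source used here states a strand setting. The authors' deposited table also holds log2 fold changes and p-values, copied as given; their normalized tables were not used.

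Genes kept by filterByExpr (minimum count 10) were scaled by TMM and tested with edgeR 4.0.16 (robust quasi-likelihood, R 4.3.3), rPTH minus control, with Benjamini-Hochberg adjustment over all 16696 genes. DESeq2 1.42.0, limma-voom (limma 3.58.1), other scalings and filters, a replicate block and leaving out each library were alternatives. Tested on simulated data with 16696 genes, the edgeR fit called 33.3% of genes changed by 1.5 on the log2 scale and 2% of those changed by 0.75. Lengths are medians over principal transcripts in GENCODE M21, and promoters are from RefSeq. Library totals of 22282095 to 33577977 counts put a floor of 3 counts at 0.0893 to 0.135 CPM.

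Members, lists and roles were chosen with earlier results of these data known. Named in full were, by role, the member with the highest mean CPM and that with the smallest p, and, of the wider list, the 3 genes with the smallest p in each direction; other members were named after their values were seen. Length limits and ratio pairs were also chosen after that.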

Additional observations from a re-analysis of the deposited data

How the results depend on the processing

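No member passed an adjusted p of 0.05 in any of the 16 alternatives, where the smallest adjusted p was 0.407; 14 members kept their sign throughout and 22 changed it in at least 1, and for these the cause was not tested. Among all genes DESeq2 called 5 and the fit without controls 1 and 3 called 2, against 0 by edgeR with all libraries (1314 at an unadjusted p under 0.05), and none of these was a member. In their deviations from the group mean, same-numbered libraries correlated at -0.131, -0.323 and 0.142. With 3 libraries per group, and controls 1 and 3 lying apart, these values cannot decide whether the numbers pair the libraries. With the replicate block 0 genes were called and 525 had an unadjusted edgeR p under 0.05, and the members' median was -0.13. Leaving out 1 library at a time gave 0 to 1 members with an unadjusted p under 0.05 and a luminal median of -0.61 to 0.04. The log2 fold changes then ranged from -0.63 to 0.07 for Creld2, -0.59 to 0.10 for Manf, -0.21 to 0.07 for P4hb, -0.23 to 0.10 for Pdia3, -0.45 to 0.04 for Pdia5, -0.43 to 0.08 for Pdia6, -0.10 to 0.29 for Ero1l, -0.27 to 0.08 for Calr, -0.57 to 0.02 for Ssr4, -0.23 to 0.05 for Rpn2, -0.12 to 0.39 for Sel1l, -0.06 to 0.07 for Edem1 and -0.15 to 0.03 for Derl1. With library totals only, the degradation median was -0.03, P4hb 0.03, Pdia3 0.03, Rpn2 0.01, Edem1 0.09 and Derl1 0.07; with no low-count filter the median was -0.02, P4hb 0.02, Pdia3 0.03, Edem1 0.10 and Derl1 0.07. Edem1 was 0.03 by DESeq2 and with its size factors. A further 3 alternatives were chosen after seeing the data. Without controls 1 and 3, which leaves 1 control that is assumed to vary like the rPTH libraries, Hyou1 was -0.06, Creld2 0.04, Manf 0.03, P4hb 0.03, Pdia3 0.09, Pdia6 0.06, Ero1lb -0.05, Sec61a1 -0.06, Ssr4 0.02, Rpn2 0.03, Sel1l -0.13 and Derl1 0.08. With the trend on length and GC removed, the calnexin cycle median was -0.08, Atf6 -0.03, Hyou1 -0.06, Ero1l -0.24, Ero1lb -0.13, Canx -0.06, Uggt1 -0.16, Sec61b 0.07, Ssr1 -0.38, Ssr2 0.02, Ssr4 0.14 and Sel1l -0.01. Among protein-coding genes only, no member changed sign. The 36 tested members had at least 179 counts in every library, and the part of depth in the lack of calls was not tested. In the simulation most changes of 0.75 on the log2 scale were missed. It drew each gene independently, without an outlying library, and changed genes of any level. How often changes of that size would go uncalled among these members was therefore not tested.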
